A study of Mus musculus with 8 samples.

Results

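The inflammatory cytokine and chemokine genes described here are Il1b, Il1rn, Tnf, Cxcl2, Ccl3 and Ccl4. They were read by 8 probe sets of an Affymetrix mouse array, taken by identifier from the 45101 probe sets of the deposited table: 1449399_A_AT for Il1b, 1423017_A_AT, 1425663_AT and 1451798_AT for Il1rn, 1419607_AT for Tnf, 1449984_AT for Cxcl2, 1419561_AT for Ccl3 and 1421578_AT for Ccl4. The gene names come with that choice of identifiers, since the table itself names no gene. The study compared cultured bone marrow cells of miR-223 null mice with those of wild-type mice on 2 days, with 2 arrays in each of 4 groups. The day 8 cells, miR-223 null and wild type, were mature neutrophils that had grown for 6 days on granulocyte colony-stimulating factor (G-CSF) plus stem cell factor (SCF) and for a further 42 hours without SCF, and were taken by cell sorting for Gr-1 without c-Kit. The day 4 cells, miR-223 null and wild type, were progenitors, grown 4 days on the same pair of factors and sorted for c-Kit without Gr-1. All groups shared SILAC-IMDM as their medium. The sources used here give no strain, age, targeted allele or pooling of animals and do not state whether the arrays of a group came from separate animals, so p-values measure the spread between arrays, which may be technical. Whether each sorted population expressed its defining markers, and whether miR-223 was absent from the null cells, was not analysed here, because no other identifier is paired with a gene.

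Interleukin-1 beta, encoded by Il1b, is a proinflammatory cytokine made as a precursor, and the product of Il1rn blocks its receptor without signalling. Tumour necrosis factor, encoded by Tnf, activates endothelium and leukocytes. Cxcl2 attracts neutrophils through the receptor Cxcr2, while Ccl3 and Ccl4 are related chemokines that attract monocytes and lymphocytes. Neutrophils transcribe these genes themselves, largely under NF-kappaB, and their messengers are short-lived. miR-223 is a microRNA abundant in granulocytes, and Cxcl2 and Ccl3 have been described as its targets in myeloid cells.

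The mature microRNA for which the null cells are named is shown first, because the genotype comparison rests on it. It lies at chrX:96242884-96242905 on the plus strand (GRCm38.p6, RefSeq), and capitals mark its seed, bases 2 to 8.
mmu-miR-223-3p: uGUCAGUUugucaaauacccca

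The promoters of 3 genes follow, each from 250 bases before the RefSeq start site and 50 from it on: Il1b, which had the largest rise between the days, and Cxcl2 and Ccl3, on which the genotype comparison turned. Il1b lies at chr2:129371090-129371389 on the minus strand, Cxcl2 at chr5:90903649-90903948 on the plus strand and Ccl3 at chr11:83649329-83649628 on the minus strand (RefSeq, GRCm38.p6). Capitals mark matches, on either strand, to the NF-kappaB consensus, AP-1 (TGANTCA), C/EBP (TTNNGNAA) and the TATA box (TATAAA).
Il1b: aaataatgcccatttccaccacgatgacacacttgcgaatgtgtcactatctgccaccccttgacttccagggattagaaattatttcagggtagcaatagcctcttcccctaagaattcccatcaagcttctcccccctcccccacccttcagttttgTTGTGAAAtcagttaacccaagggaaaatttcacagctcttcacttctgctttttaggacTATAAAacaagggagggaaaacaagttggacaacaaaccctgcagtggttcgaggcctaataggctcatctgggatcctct
Cxcl2: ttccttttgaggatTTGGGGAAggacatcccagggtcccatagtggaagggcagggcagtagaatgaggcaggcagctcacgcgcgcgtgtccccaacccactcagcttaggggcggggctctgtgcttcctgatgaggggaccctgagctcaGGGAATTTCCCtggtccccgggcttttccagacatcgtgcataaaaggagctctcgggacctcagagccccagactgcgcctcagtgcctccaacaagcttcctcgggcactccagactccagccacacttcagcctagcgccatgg
Ccl3: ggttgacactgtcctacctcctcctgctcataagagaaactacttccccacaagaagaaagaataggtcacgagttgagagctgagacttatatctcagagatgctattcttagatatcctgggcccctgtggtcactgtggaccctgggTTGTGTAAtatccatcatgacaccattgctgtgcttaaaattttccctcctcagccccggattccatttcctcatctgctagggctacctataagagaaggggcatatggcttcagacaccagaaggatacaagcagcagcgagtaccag

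RefSeq promoters were at hand for 5 of the 6 genes, with 7 start sites in all. The NF-kappaB consensus was matched in 1 of the 7, that of Cxcl2, where matches on both strands overlapped from base -97 to base -87, against 8.46% of 32851 mouse promoters of this length. A C/EBP match stood in 6 of the 7, against 40.7% of all promoters: from -91 to -84 in Il1b, from -236 to -229 in Cxcl2 and from -100 to -93 in Ccl3. The 6 include a pair of overlapping Il1rn windows that hold the same C/EBP sites, so that stretch counts more than once. TATAAA was matched in 3 of the 7 (13.6% of all), at -31 in Il1b, at -29 in Tnf and, on the other strand, after an Il1rn start site. AP-1 was matched in 1, an Il1rn start site (7.81% of all). These are matches of letters, and no binding was measured. Sites outside these windows, or with letters that depart from the patterns, were not sought.

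Signals are the deposited values on a log2 scale, where a difference of 1 is 2-fold. All 8 probe sets had a mean over the 8 arrays of at least 5.51, the median for non-control probe sets, and so entered the test with 22519 probe sets in all. Of these, 5 were above that value on every array, and the 3 Il1rn probe sets were below it on every day 4 array. Called means an adjusted p below 0.05 in limma.

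In mature neutrophils all 6 genes were higher than in progenitors of the same genotype, and for each of the 8 probe sets every day 8 array lay above every day 4 array. The rise was largest for Il1b, about 38-fold in null and 37-fold in wild-type cells, and smallest for Ccl4. All 8 were called higher in both genotypes, against 36.0% of all probe sets tested in null and 35.5% in wild type. The median change of the 8 was 2.87 on the log2 scale in null and 3.07 in wild type, against 0.00 and -0.04 over all probe sets tested. The 3 Il1rn probe sets passed the filter only through their day 8 values and therefore had to differ, but without any filter all 8 were called as well, against 25.6% of all probe sets called higher in null and 28.5% in wild type in that setting. Arrays without overlap and higher at day 8 were found for 44.4% of all tested probe sets in null and 42.6% in wild type, so the missing overlap alone says little. In sorted populations a change in the share of cells that make a transcript cannot be told apart from a change in the amount per cell, and day, withdrawal of SCF and the sorting gate cannot be told apart from each other.

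Among the cytokines, Il1b signal was 11.68 and 12.05 on the null day 8 arrays, 11.81 and 11.80 on the wild-type day 8 arrays, 6.36 and 6.86 on the null day 4 arrays and 6.30 and 6.88 on the wild-type day 4 arrays. The day groups were far apart, and within each day the genotypes overlapped. The log2 change from day 4 to day 8 was 5.25 in null (SE 0.20, adjusted p = 1.4e-09, n = 2 arrays per group) and 5.21 in wild type (SE 0.20, adjusted p = 1.8e-09). Only 0.222% of the tested probe sets rose more in null and 0.173% in wild type.

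Tnf signal was 9.53 and 9.85 in null neutrophils and 9.48 and 9.53 in wild-type neutrophils, against 7.55 and 7.66 in null progenitors and 7.50 and 7.61 in wild-type progenitors. It rose 4.25-fold in null and 3.87-fold in wild-type cells (log2 changes 2.09 and 1.95, SE 0.11 for both, limma adjusted p = 1.6e-08 and 3.1e-08). Genotypes overlapped within each day, as for Il1b.

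The antagonist gene Il1rn rose with Il1b, but its probe sets gave different sizes. Probe set 1423017_A_AT was at 9.31 and 9.71 in null neutrophils and 9.22 and 9.02 in wild-type neutrophils, against 5.45 and 4.90 in null progenitors and 5.32 and 5.46 in wild-type progenitors. Probe set 1451798_AT gave 9.24 and 9.36 in null neutrophils and 9.20 and 8.78 in wild-type neutrophils, against 4.88 and 4.94 in null progenitors and 5.29 and 5.20 in wild-type progenitors. These probe sets rose by similar amounts: by 4.34 and 4.39 on the log2 scale in null, and by 3.73 and 3.74 in wild type. Probe set 1425663_AT rose less, by 2.16 in null and 2.42 in wild type (SE 0.17 for both), with 6.66 and 7.18 in null neutrophils and 6.99 and 6.93 in wild-type neutrophils, against 4.75 and 4.77 in null progenitors and 4.54 on both arrays of wild-type progenitors. It carried the identical value on those wild-type arrays, as did 13 of the tested probe sets there. Every day 4 value of Il1rn lay between 4.54 and 5.46, below the filter value of 5.51. Whether the size of these rises depends on how background was treated was not tested. The mean of the 3 probe sets rose by 3.63 in null and 3.30 in wild type. Il1rn has RefSeq transcripts with different first exons, and which of them each probe set reads was not analysed here.

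**Figure D1:**
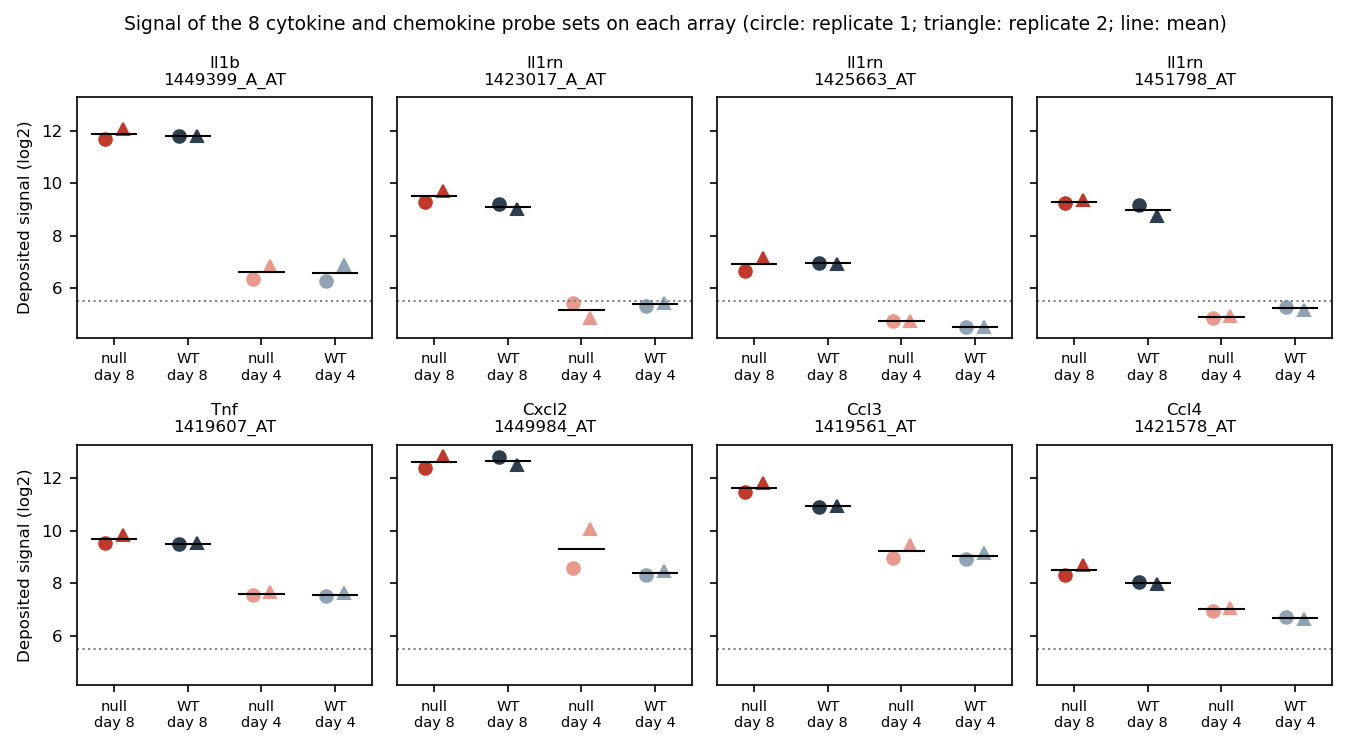
Deposited log2 signal of each of the 8 probe sets on the 8 arrays, by group (circles: replicate 1; triangles: replicate 2; lines: group means; dotted line: the filter value of 5.51). All day 8 points lie above all day 4 points in each panel, and the Cxcl2 panel shows null day 4 replicate 2 at 10.05, apart from the other day 4 arrays.

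Among the chemokines, Cxcl2 signal was 12.40 and 12.86 in null neutrophils and 12.81 and 12.49 in wild-type neutrophils, against 8.57 and 10.05 in null progenitors and 8.30 and 8.48 in wild-type progenitors. It rose 9.96-fold in null cells (log2 change 3.32, SE 0.35, limma adjusted p = 5.1e-06) and 19.2-fold in wild-type cells (log2 change 4.26, SE 0.35, adjusted p = 6.3e-07). The rise in null cells was 2.58 on the log2 scale without null day 4 replicate 1 and 4.06 without null day 4 replicate 2, and it was called either way.

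Ccl3 signal was 11.45 and 11.80 in null neutrophils and 10.91 and 10.94 in wild-type neutrophils, against 8.97 and 9.45 in null progenitors and 8.92 and 9.15 in wild-type progenitors. It rose 5.34-fold in null and 3.72-fold in wild-type cells (log2 changes 2.42 and 1.89, SE 0.15 for both, limma adjusted p = 5.8e-08 and 4.6e-07). Ccl4, its neighbour on chromosome 11, was at 8.31 and 8.71 in null neutrophils and 8.03 and 7.96 in wild-type neutrophils, against 6.94 and 7.06 in null progenitors and 6.72 and 6.64 in wild-type progenitors. The Ccl4 rise was 2.85-fold in null and 2.49-fold in wild-type cells (log2 changes 1.51 and 1.32, SE 0.13 for both). The RefSeq spans of Ccl3 (chr11:83647843-83649378) and Ccl4 (chr11:83648624-83664683, GRCm38.p6) overlap. Probe sequences were not used here, so any cross-reading between these related genes was not tested.

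**Figure D2:**
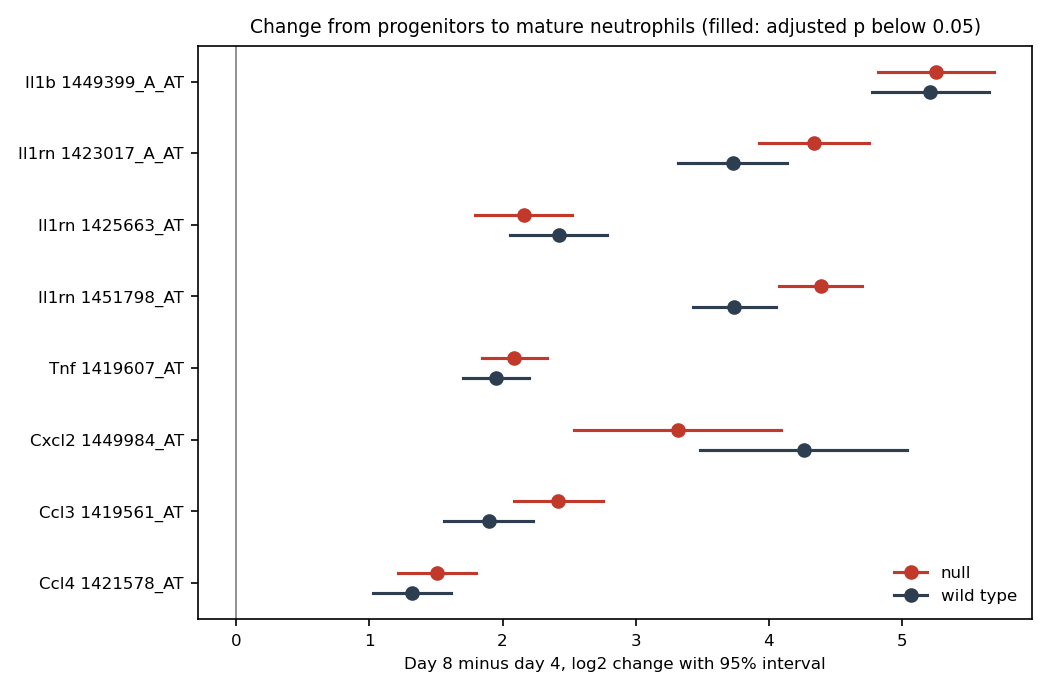
Change from day 4 to day 8 of each probe set in null and wild-type cells, on the log2 scale, with the 95% interval of the limma fit (filled points: adjusted p below 0.05). All 16 points are positive and filled, from 1.32 for Ccl4 in wild type to 5.25 for Il1b in null.

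The effect of losing miR-223 was asked first in mature neutrophils. Ccl3 was the member called: it was 1.63-fold higher in null than in wild-type neutrophils (11.63 ± 0.25 against 10.93 ± 0.020, SD, n = 2 each; log2 change 0.70, SE 0.15, limma adjusted p = 0.024), and both null arrays lay above both wild-type arrays. Of the tested probe sets, 4.09% were called higher and 1.22% lower in this comparison, and 0.995% had a larger increase than Ccl3. Ccl4 moved the same way and just missed the threshold, at 1.43-fold (8.51 ± 0.28 against 8.00 ± 0.047, SD, n = 2 each; log2 change 0.51, SE 0.13, 95% interval 0.22 to 0.80, adjusted p = 0.051). The Ccl3 call did not hold without null day 8 replicate 2 (log2 change 0.53, adjusted p = 0.16), without wild-type day 8 replicate 1 (0.69, adjusted p = 0.12) or replicate 2 (0.72, adjusted p = 0.13), or without the intensity trend (adjusted p = 0.075). Its adjusted p lay between 0.0033 and 0.16 across the 18 alternatives. Ccl4 was called in 4 of its 17 alternatives, with log2 changes of 0.31 without null day 8 replicate 2 and 0.71 without null day 8 replicate 1 (adjusted p from 0.032 to 0.29).

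The other 6 probe sets were not called at day 8. Il1rn was higher in null by 0.39 at 1423017_A_AT (95% interval -0.02 to 0.80, limma adjusted p = 0.27) and by 0.31 at 1451798_AT (0.00 to 0.62, adjusted p = 0.24), with no overlap of the arrays at either. Both differences depended on single arrays. With null day 8 replicate 2 left out the first was 0.19, and it was 0.59 when replicate 1 was left out instead. The second was 0.10 if replicate 2 of the wild-type neutrophils was dropped, and 0.52 if replicate 1 was. At 1425663_AT the difference was -0.04 (-0.41 to 0.32), with overlapping arrays. Tnf differed by 0.19 (-0.06 to 0.43), Il1b by 0.06 (-0.38 to 0.50) and Cxcl2 by -0.02 (-0.80 to 0.75). The interval for Cxcl2 is the widest of the 8 and does not show that the genotypes were alike. Its SE of 0.35 uses the spread of all 4 groups. The SD of Cxcl2 was 1.05 in null day 4 cells, against 0.33 in null and 0.23 in wild-type neutrophils. Arrays did not overlap for 4 of the 8 probe sets, all higher in null, against 30.4% of all tested probe sets higher without overlap. The median of the 8 changes was 0.25, against 0.02 over all tested probe sets. Il1rn gives 3 of the 8, and null day 8 replicate 2 was above replicate 1 for all 8. Without null day 8 replicate 2 the changes ran from -0.31 for Il1rn at 1425663_AT to 0.53 for Ccl3.

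In progenitors none of the 8 was called by limma between the genotypes, against 2.72% of all tested probe sets. Cxcl2 had the largest difference, 1.89-fold higher in null (9.31 ± 1.05 against 8.39 ± 0.13, SD, n = 2 each; log2 change 0.92, SE 0.35, 95% interval 0.15 to 1.70, adjusted p = 0.20). Both null arrays were above both wild-type arrays, but replicate 1, at 8.57, by little and replicate 2, at 10.05, by far. The difference was 0.18 without null day 4 replicate 2 (adjusted p = 0.79) and 1.66 without null day 4 replicate 1 (adjusted p = 0.0033). Scaled to the hybridization controls it was 1.01 and called (adjusted p = 0.027; between 0.0033 and 0.79 across the alternatives).

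Ccl4 was higher in null progenitors by 0.32 (95% interval 0.03 to 0.61, limma adjusted p = 0.23) with no overlap, and Ccl3 by 0.18 (-0.15 to 0.51), with overlap. Il1b differed by 0.02 (-0.42 to 0.46) and Tnf by 0.05 (-0.20 to 0.29). Il1rn pointed both ways in progenitors, at -0.34 for 1451798_AT (-0.65 to -0.03, adjusted p = 0.24), -0.22 for 1423017_A_AT and 0.22 for 1425663_AT, all at signals below 5.51. Arrays without overlap were found for 4 of the 8, with 3 higher and 1 lower in null. The shares over all tested probe sets were 21.1% higher and 27.8% lower.

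**Figure D3:**
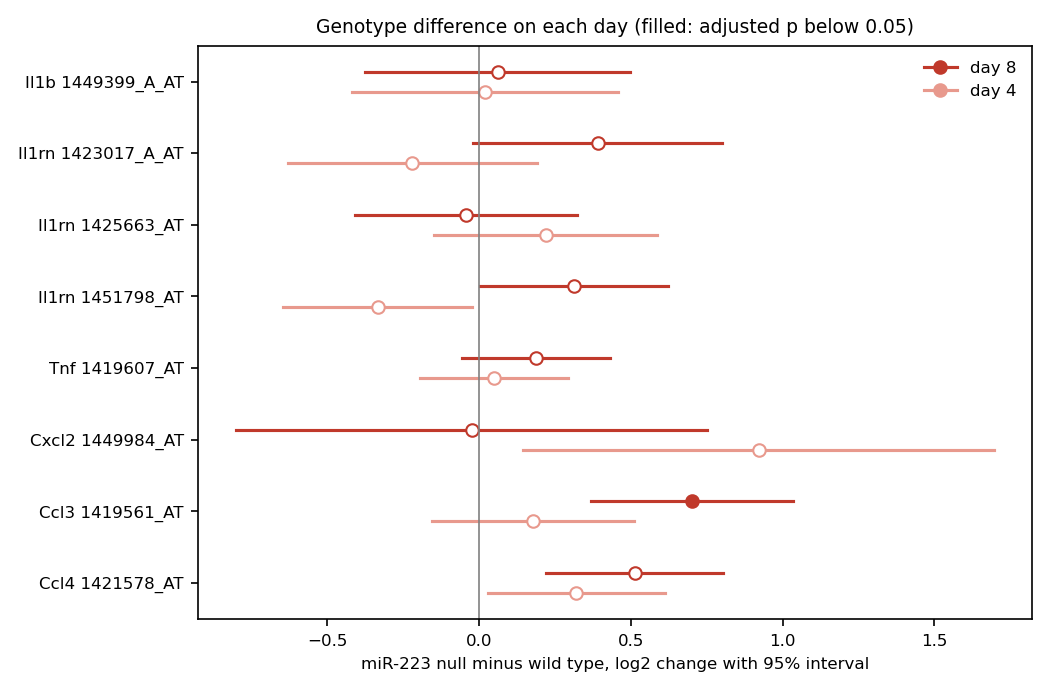
Difference between null and wild-type cells for each probe set at day 8 and day 4, on the log2 scale, with the 95% interval of the limma fit (filled: adjusted p below 0.05). Ccl3 at day 8 is the only filled point, at 0.70, and the Cxcl2 intervals are the widest on both days.

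The difference between the null effects of the days was tested itself, and limma called none of the 8 probe sets, against 1.66% of all tested. The largest differences were -0.95 for Cxcl2 (95% interval -2.04 to 0.15, adjusted p = 0.38), 0.65 for Il1rn at 1451798_AT (0.21 to 1.09, adjusted p = 0.13), 0.61 for Il1rn at 1423017_A_AT (0.03 to 1.19, adjusted p = 0.28) and 0.52 for Ccl3 (0.05 to 0.99, adjusted p = 0.25). Ccl3 at day 8 is therefore not shown to differ from Ccl3 at day 4 in its null effect. Without null day 4 replicate 1 the Cxcl2 difference was -1.69 and called (adjusted p = 0.026; between 0.026 and 0.80 across the alternatives).

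Ordered by group means, Il1b, Tnf, Ccl3 and Ccl4 ran from null day 8 over wild-type day 8 and null day 4 to wild-type day 4. Cxcl2 and the 1425663_AT probe set of Il1rn had the wild-type day 8 mean on top, above an overlapping null day 8 group. The other Il1rn probe sets had null day 4 lowest. For all 8 the step between the days had no overlap. Neighbours within a day overlapped at both days for Il1b and Tnf, at day 4 for Ccl3 and at neither day for Ccl4.

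The arrays of a group differed from each other at some members. In null day 8 cells, replicate 2 was above replicate 1 for all 8 probe sets, by 0.12 to 0.52 (median 0.38), while 55.5% of all tested probe sets were higher on replicate 2, with a median difference of 0.02. In wild-type day 8 cells replicate 2 was higher for 2 of the 8 (median -0.06), against 48.1% of all tested probe sets. Replicate 2 was also higher for 7 of the 8 in null day 4 cells (49.2% of all) and for 5 of the 8 in wild-type day 4 cells (57.5% of all). In null day 4 cells Cxcl2 differed by 1.48, the 2nd largest difference in size among the 22519 tested probe sets, where the SD over all of them was 0.158. Il1b (0.50) and Ccl3 (0.47) were higher on the same array, and Il1rn at 1423017_A_AT was lower by a similar amount (-0.55). In wild-type day 4 cells Il1b was higher on replicate 2 by 0.58. What set these arrays apart was not tested.

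**Figure D4:**
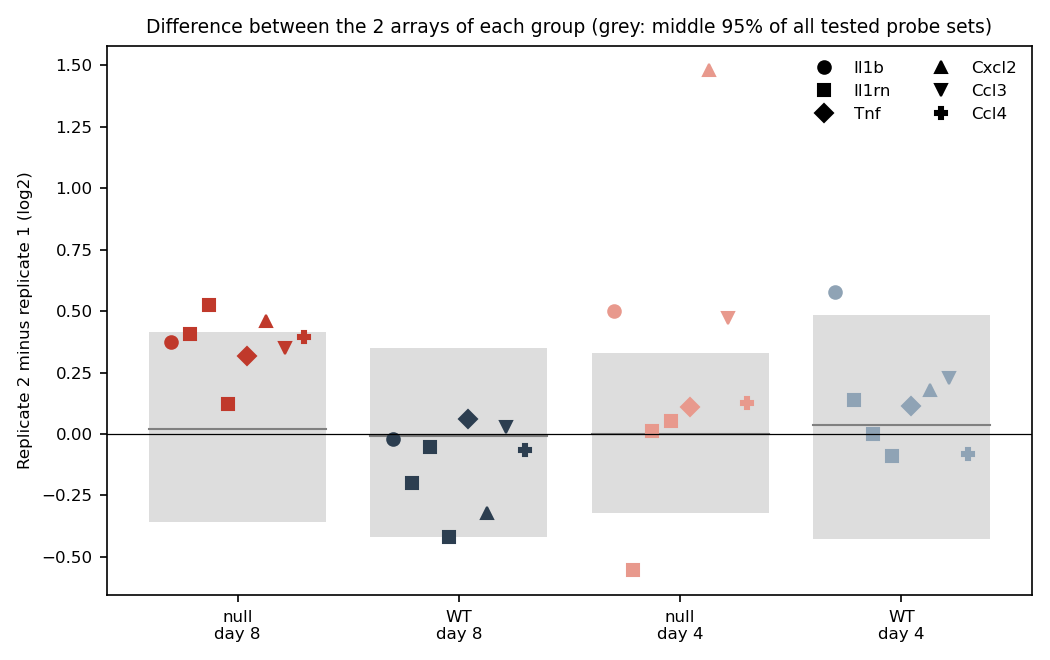
Difference between the arrays of each group, replicate 2 minus replicate 1 on the log2 scale, for the 8 probe sets (markers by gene; grey bands: the middle 95% of all tested probe sets; grey lines: their median). All null day 8 points lie above 0, and Cxcl2 in null day 4 cells, at 1.48, lies far above its band.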

How the data were processed

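Biotin-labelled material from total RNA was hybridized to 8 Affymetrix arrays, 2 for each genotype and day, per the labels' protocols. The deposited values are on a log2 scale, a base read from their range. The submitters' processing notes name the software GCOS. The probe summary, the background correction and the normalization are not given in the sources at hand. The array medians spanned 0.052, and the values were analysed as deposited.

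A linear model of the 4 group means (4 residual degrees of freedom) was fitted across all 22519 probe sets at or above the filter in limma 3.58.1 (lmFit, eBayes with an intensity trend, R 4.3.3). Tests were two-sided, with Benjamini-Hochberg adjustment over all probe sets tested in a comparison. The steps were tested on simulated data. With 2 arrays against 2, an exact permutation test cannot go below p = 0.333, so each call rests on the spread shared across groups and probe sets. The number of arrays limits the precision, with a median SE of 0.115 for a change between groups.

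The members, the comparisons and the gene lists were chosen with earlier results of these data known. All 8 members were to be named. The 18 lists of related genes and cell type markers, and the search for probe sets of like pattern, were not analysed here, because only the members' identifiers are paired with genes. Promoter and microRNA sequences are from RefSeq (GRCm38.p6).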

Additional observations from a re-analysis of the deposited data

How the results depend on the processing

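Each comparison of 2 groups was repeated under 18 alternatives and the difference between the days under 17. All 8 rises from day 4 to day 8 were called in both genotypes under every alternative that tested them, and without any 1 array the count was 8 throughout. Most probe sets changed between the days as well. The share of all tested probe sets called in either direction ran from 49.1% to 85.9% in null. In wild type it ran from 53.2% to 85.3%. A filter at the upper quartile tested and called 4 of the 8, because fewer probe sets enter. Under that filter 39.5% of all tested probe sets were called higher at day 8 in null and 37.0% in wild type. At day 8 the number called between genotypes, 1 as reported, was 0 without the intensity trend, 2 with only the arrays of the groups compared, and 0 to 2 without any 1 array. At day 4 it was 0 as reported, 1 when scaled to the hybridization controls and 0 to 1 without any 1 array. For the difference between the days it was 0 as reported and 0 to 1 without any 1 array. The cause of these changes was not tested. Where 1 array is left out, the lone array of its group is assumed to vary like the other groups. No called change turned its direction. Averaging the 3 Il1rn probe sets changed no call (log2 change 0.22 at day 8 and -0.11 at day 4 between genotypes).

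Scaling to the hybridization controls moved the median of all tested probe sets to -0.35 between the days in null, to -0.21 in wild type and to -0.15 for the difference between the days. Under it the rises of the 8 still ran from 1.16 to 4.90 in null and from 1.15 to 5.05 in wild type, and Ccl3 at day 8 was 0.61 higher in null. Of all calls, 47.0% were then higher at day 8 (326 higher, 368 lower) against 77.1% as reported, and 51.9% at day 4 (221 higher, 205 lower) against 21.4%. After cyclic loess 34.3% were higher at day 4. Over all alternatives the share of probe sets called ran from 1.57% to 8.41% at day 8, from 0.435% to 7.36% at day 4 and from 0.209% to 3.95% for the difference between the days.

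Same-numbered arrays are not stated to be pairs, and the differences between replicates 2 and 1 correlated across probe sets at -0.05 to 0.22 between groups. With the replicate block the members called were 1 at day 8, 0 at day 4, 8 in each change between the days and 0 for the difference between the days, as without it. Of all tested probe sets, that fit called 5.44% at day 8, 2.80% at day 4 and 1.42% for the difference between the days. Between the days it called 36.1% higher in null and 35.8% higher in wild type. Counts of related gene lists were not run.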
